A study of Mus musculus with 10 samples.

Results

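The collagen and laminin genes were taken as all genes present in the feature lists of every library whose symbols start with Col or Lam and name a chain, and antisense transcripts were dropped. The rule found 56 of 30406 genes, made up of 44 collagen genes, 11 laminin genes and Col4a3bp. Col4a3bp encodes a ceramide transfer protein that is neither a collagen nor a laminin, and it stays in the counts of members below. Droplet sequencing was used to profile single cells of male C57BL/6N mice, aged over 2 months, from the medial prefrontal cortex, in 5 libraries from mice of rank 1 and 5 from mice of rank 4 in the tube test, a test of social dominance in which paired mice meet in a narrow tube. Tissue was punched from slices 1 day after the last test and dissociated with papain, each library pooled 2 to 3 mice, and no genetic change or drug is named for either group. Because mice were pooled, the spread between libraries is a spread between pools and not between single animals.

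Collagens are triple helices of 3 chains that form fibrils, sheets or membrane-bound proteins. Laminins are cross-shaped trimers of an alpha, a beta and a gamma chain that, with type IV collagen, build the basement membrane, the thin sheet that surrounds brain vessels and borders the meninges. In the brain this sheet lies between endothelial cells, the pericytes and smooth muscle cells of the vessel wall, and the endfeet of astrocytes. Several collagens with a membrane-spanning part or a fibril-associated form are made by neurons.

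The libraries held 4442750 to 29278466 unique molecular identifiers (UMIs, counted RNA molecules), and 46727 of 64937 barcodes were kept as cells. Members made up 0.0388 to 0.0562% of the UMIs of a library and summed to 55108 UMIs in kept cells, 49067 of them without Col4a3bp. Cells were clustered without the members, so that no class was defined by them, and clusters were named from fixed markers. Every class name below stands for cells that resemble that type, as in pericyte-like. The classes ranged from 16494 excitatory neurons to 107 fibroblasts, and 1965 cells stayed unnamed. Of the neurons, 3038 excitatory and 649 inhibitory cells got no subclass name. They count in their class but in no subclass level, ranking or contrast below. The summed level of the 8 fibroblast markers was 6718 CPM in fibroblasts (UMIs scaled to a total of 1000000), 348 in pericytes, 299.9 in smooth muscle cells and 20.4 in endothelial cells. Barcodes found in more than 1 library numbered 571 and carried 779 kept cells. Barcodes that were not kept held 20.2% of member UMIs and 23.3% of all UMIs. The rank 4 replicate 1 library stood apart in several values given beside the results they touch. Levels are CPM summed over the cells of a class in a library with at least 10 such cells, as mean ± SD over libraries. They are not corrected for transcript length, so they are compared between classes and not between genes. Of the 56 members, 24 overlap a gene on the other strand, and whether strand was used in counting is not given in the sources used here, so reads of such pairs may not be told apart. Members that overlap a gene on the same strand number 21, and strand could not tell those reads apart.

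Of the 56 members, 24 reached 100 CPM in some named class or neuron subclass, 15 more lay between 20 and 100 CPM at their highest, and 17 stayed under 20 CPM in all of them. Fibroblasts held the highest level for 17 of the 24. The other 7 were highest in L5 PT neurons (Col6a1), Sst neurons (Col19a1), Vip neurons (Col25a1), committed oligodendrocyte precursors (Col9a3), pericytes (Lama4), smooth muscle cells (Lama5) and endothelial cells (Col4a3bp). Summed collagen levels were 4512 ± 1090 CPM in fibroblasts (n = 5 libraries), 901 ± 385 in pericytes, 587 ± 185 in endothelial cells and 300.5 ± 47.8 in excitatory neurons (n = 10 each). Committed oligodendrocyte precursors at 653 ± 107 CPM and smooth muscle cells at 630 ± 249 (n = 9 each) lay between pericytes and endothelial cells. Summed laminin levels were 1515 ± 512 CPM in fibroblasts, 838 ± 356 in pericytes, 599 ± 170 in smooth muscle cells (n = 9), 311 ± 68.3 in endothelial cells and 46.9 ± 4.25 in excitatory neurons.

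**Figure D1:**
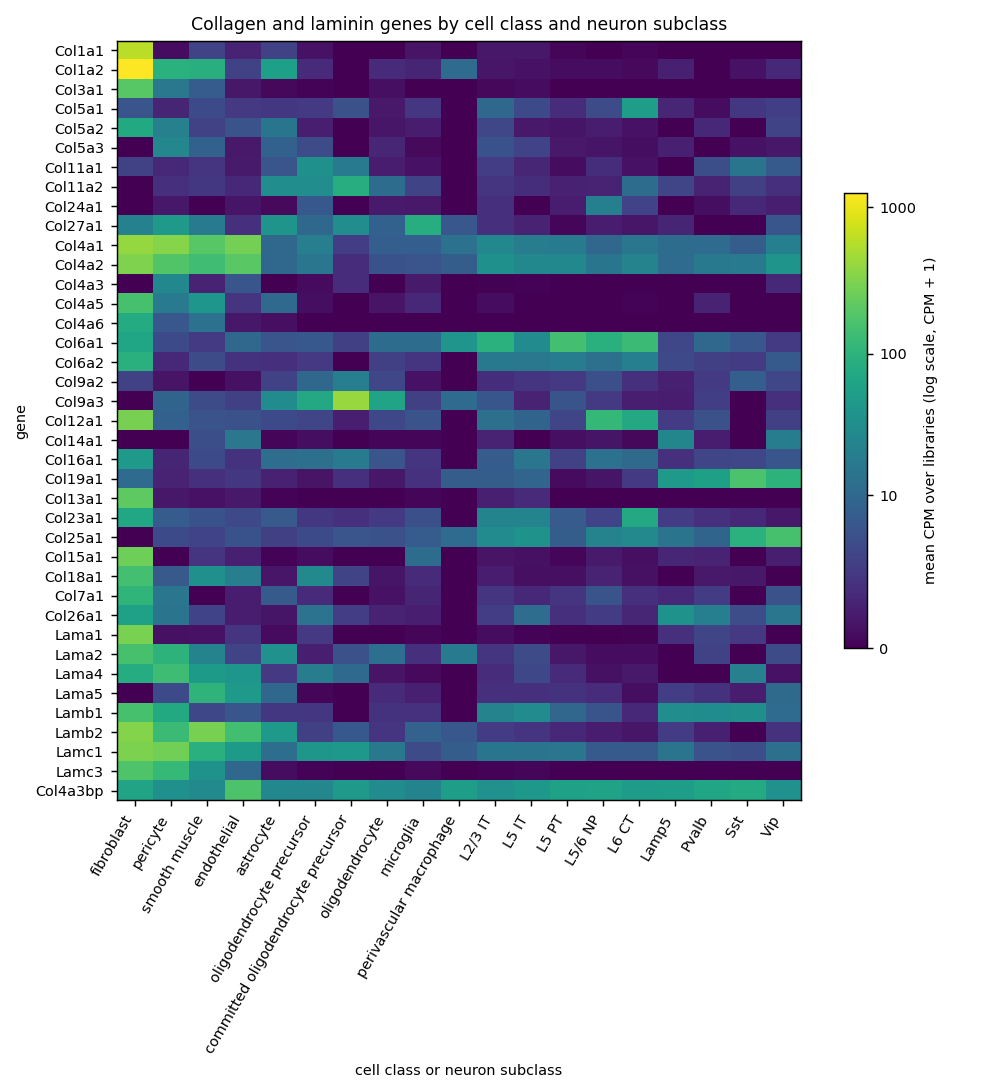
Mean level of the 39 members that reached 20 CPM somewhere, in 10 cell classes and 9 neuron subclasses, colored by log10(CPM + 1). Most members above 100 CPM are highest in the fibroblast column, while Col6a1, Col19a1 and Col25a1 are highest in neuron columns and Col9a3 in committed oligodendrocyte precursors.

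Of the fibrillar collagens, Col1a1, Col1a2, Col3a1 and Col5a2 were highest in fibroblasts, which held at least 10 cells in only 5 libraries (rank 1 replicate 5 and rank 4 replicates 1, 3, 4 and 5, with 13 to 26 cells). Col1a1 and Col1a2 encode the chains of type I collagen, the main fibril protein of connective tissue. Col1a1 (chromosome 11, 94936224 to 94953042, GRCm38) stood in these libraries at 671.7, 502.3, 623.3, 819.3 and 384.8 CPM, from 14 to 34 UMIs each. Pericytes held 1 Col1a1 UMI in all 10 libraries together. Col1a2 (chromosome 6, 4504814 to 4541544) stood at 1567, 1034, 701.2, 1598 and 1347 CPM in fibroblasts. All 5 values lay above the highest of the 10 pericyte libraries, which was 155 CPM. Col3a1, the chain of type III collagen found beside type I, was at 194 ± 57 CPM in fibroblasts and 16.4 ± 9.5 in pericytes.

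Col1a2 was also measured in astrocytes, at 55.3 ± 11.5 CPM (34.5 to 74.4) from 921 UMIs, against 0.43 CPM in excitatory neurons. Col1a1 had 54 UMIs and Col3a1 had 3 in the same astrocytes, while fibroblasts held 102 of Col1a1 beside 218 of Col1a2. The summed level of the 8 fibroblast markers in astrocytes was 1.65 to 11.9 CPM over libraries, against 5348 to 8029 in fibroblasts. The bases before the RefSeq starts of 2 fibroblast fibril genes are printed because both genes were high in fibroblasts while their upstream letters differ. Col3a1 is shown for the whole 250 bases, and Col1a2 only for its longest stretch in no annotated exon, so that its print ends before the start and leaves out 1 CCAAT match. Capitals mark the motifs TATAAA and GGGCGG, searched on both strands (GRCm38.p6, plus strand, at chr1:45311288-45311537 and chr6:4505370-4505492).
Col3a1: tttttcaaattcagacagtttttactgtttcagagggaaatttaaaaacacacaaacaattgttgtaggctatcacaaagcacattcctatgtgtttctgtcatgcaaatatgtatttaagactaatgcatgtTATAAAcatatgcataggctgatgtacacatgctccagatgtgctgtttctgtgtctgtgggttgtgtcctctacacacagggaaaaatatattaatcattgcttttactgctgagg
Col1a2: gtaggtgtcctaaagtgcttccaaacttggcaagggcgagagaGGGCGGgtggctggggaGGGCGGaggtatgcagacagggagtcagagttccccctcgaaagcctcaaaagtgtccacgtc
Over the 250 bases before the start, TATAAA was found in 12.4%, GGGCGG in 32.7% and CCAAT in 33.8% of 32851 RefSeq mouse starts. Of the 40 members with an entry, 5, 23 and 13 held them at their first entry. These are matches of letters and not measured binding sites.

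The fibroblast libraries were compared with the pericytes of the same libraries, since both lie along vessels. Of 15 members that passed the filter on low counts, 8 were higher in fibroblasts and 0 lower (edgeR's quasi-likelihood test with library as a block, adjusted p under 0.05 and a log2 fold change of at least 1), where 6.15% of all 2080 genes tested were higher and 7.79% lower. Col1a1, Col13a1, Col15a1 and Lama1, with 0 or 1 UMI in the pericytes, and Col18a1, with 6, passed the filter through the fibroblasts, so the count of 8 against 0 is a description. The same holds for the counts and p values in the other contrasts of classes and subclasses. This concerns members with few UMIs in 1 class, which passed through the class in which they are high. Col1a1 was at least 280.5-fold higher (102 UMIs against 0, with a floor of 3 counts over the pericyte group). Col13a1, a collagen that spans the cell membrane, stood at 212 ± 36 CPM and was at least 107-fold higher. Col15a1, a basement membrane collagen with an endostatin-like end, stood at 259 ± 192 CPM and was at least 113-fold higher. Lama1 had 48 UMIs against 1. For Col1a2 the log2 fold change was 3.75 in 5 of 5 libraries (edgeR, SE 0.19, adjusted p 2.72e-16). The others called were Col18a1 (4.98), whose end is cleaved to endostatin, Col3a1 (3.85) and Lamb2 (1.11). Col4a1 (0.04), Lamc1 (0.04), Lama2 (0.46), Col4a2 (0.56), Lamc3 (0.64), Lamb1 (0.68) and Lama4 (-0.87) were not called. Fibroblasts also carried pericyte markers, at 5538 CPM (summed over 7 genes) against 25140 in pericytes, and the part of pericyte RNA in their shared levels was not tested. Under a stricter cell filter only rank 4 replicate 1 held at least 10 fibroblasts (14 cells), and there Col4a1 stood at 157 CPM, Lamc1 at 122, Lama1 and Lamb2 at 139.6 each and Col4a2 at 69.8. The same library stood with the usual filter at 132.9, 118.2, 132.9, 118.2 and 73.86 CPM in that order, all below the means over 5 libraries.

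Other fibroblast levels above 100 CPM were Col12a1 at 287 ± 137 CPM and Col7a1, the anchoring fibril collagen, at 107 ± 79.4. In the 1 library left by the stricter filter they stood at 52.35 and 17.45 CPM, against 59.09 and 14.77 there with the usual filter. Col12a1, which decorates fibrils, stood in rank 4 replicate 1 at 59.09 CPM (4 UMIs), and in the other 4 libraries at 261.2 to 389.5. Fibroblast Col18a1 was at 146 ± 39 CPM, against 28.9 ± 10.4 in oligodendrocyte precursors and 20.2 in endothelial cells. Fibroblasts could not be compared between ranks, since only 1 rank 1 library held enough of them.

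Type IV collagen, the sheet of the basement membrane, was spread over all vascular classes. Its chains are made from 3 pairs of genes that lie head to head. Col4a1 (chromosome 8, 11198423 to 11312826, minus strand) stood at 403 ± 178 CPM in fibroblasts (n = 5), 347 ± 187 in pericytes (153 lowest, 269.9 median, 677 highest), 281 ± 114 in endothelial cells (167, 231 and 515) and 197 ± 108 in smooth muscle cells. Col4a2 stood at 316 ± 225, 180.0 ± 98.2 and 201 ± 68 CPM in the first 3 of these. Both were far lower in excitatory neurons, at 18.8 ± 7.9 and 25.1 ± 8.5 CPM. Their first bases overlap on opposite strands at chr8:11312805-11312826 (GRCm38), and this stretch is printed because both genes start in it.
Col4a1 and Col4a2 overlap: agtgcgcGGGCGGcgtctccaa
Capitals mark the motif GGGCGG. The stretch between Col4a4 and Col4a3 (chr1:82586850-82586920) is shown for comparison with the overlap, and none of the 3 motifs was found in it.
Col4a4 to Col4a3 gap: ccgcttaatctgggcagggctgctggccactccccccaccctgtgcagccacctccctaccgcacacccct
The Col4a6 and Col4a5 starts lie 1308 bases apart on chromosome X.

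The ratio of Col4a1 to Col4a2 was looked at after its values were seen, so it is given as a description with no test. As log2 of UMIs plus 0.5, it was 0.45 ± 0.24 in endothelial cells and 0.93 in pericytes, which was higher in 10 of 10 libraries. In excitatory neurons it was -0.47 ± 0.36, lower than in endothelial cells in 10 of 10 libraries. In astrocytes it was -0.16 ± 0.76, lower in 9 of 10. In total UMIs the ratio was 1.97 in pericytes, 1.44 in endothelial cells, 1.20 in smooth muscle cells and 0.789 in excitatory neurons. The 7 pericyte markers summed to 37.9 CPM in excitatory neurons and 25140 in pericytes, and the part of vessel RNA in the neuronal counts was not tested.

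**Figure D2:**
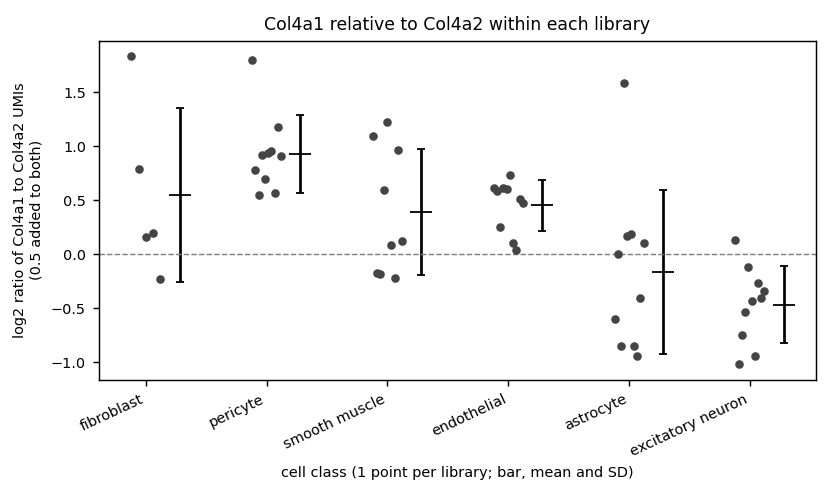
Log2 ratio of Col4a1 to Col4a2 UMIs per library in each class (points), with mean and SD. Pericyte points lie above endothelial points in 10 of 10 libraries, and excitatory neuron points below them in 10 of 10.

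The other pairs were thinner. Col4a3 and Col4a4, whose chains join in kidney and lung basement membranes, were highest in pericytes among the vascular classes, at 27.1 ± 15.3 and 13.8 ± 12.7 CPM, against 5.72 and 1.47 in endothelial cells and 0 UMIs of either in fibroblasts. Col4a5 stood at 159 ± 90 CPM in fibroblasts (59.09 to 261.2), 41.1 ± 29.9 in smooth muscle cells and 10.5 ± 5.5 in astrocytes. Col4a6 stood at 79.9 ± 72.6 CPM in fibroblasts, where rank 4 replicate 3 had 0, and at 0.34 CPM in astrocytes. Col4a5 was thus measured in astrocytes from 154 UMIs while its neighbour had 5.

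Lama1 and Lama2 were highest in fibroblasts, Lama4 in pericytes, Lama5 in smooth muscle cells and Lama3 in astrocytes. Lama1 was high in fibroblasts, at 261.2, 132.9, 272.7, 409.7 and 412.3 CPM, and was at 0.37 CPM in pericytes. Lama2, the alpha chain of muscle laminin, stood at 156 ± 99 CPM in fibroblasts, 99.8 ± 44.8 in pericytes, 36.1 ± 17.5 in astrocytes and 3.32 in endothelial cells. Lama4, an alpha chain of vessel walls, had a lowest value of 68.0, a median of 119 and a highest of 299.6 CPM in pericytes, against 42.0 ± 10.2 in endothelial cells. Lama5, another alpha chain of vessel walls, stood at 102 ± 44 CPM in smooth muscle cells (42.4 lowest, 90.5 median, 177.3 highest), 45.6 ± 11.7 in endothelial cells and 4.03 in pericytes, and had 0 UMIs in fibroblasts. Lama3 reached 19.9 ± 8.1 CPM in astrocytes and 8.2 in endothelial cells.

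The beta and gamma chains followed other orders. Lamb1 stood at 155 ± 95 CPM in fibroblasts and 75.0 ± 34.5 in pericytes. Lamb2 stood at 330.3 ± 165 CPM in fibroblasts, 289 ± 101 in smooth muscle cells, 145 ± 42 in endothelial cells and 44.7 ± 18.0 in astrocytes. Lamc1, the gamma chain shared by most laminins, stood at 309 ± 135 CPM in fibroblasts, 275 ± 107 in pericytes and 47.9 ± 11.3 in endothelial cells. Lamc3 stood at 175 ± 140 CPM in fibroblasts, 119 ± 101 in pericytes and 0.26 in astrocytes.

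**Figure D3:**
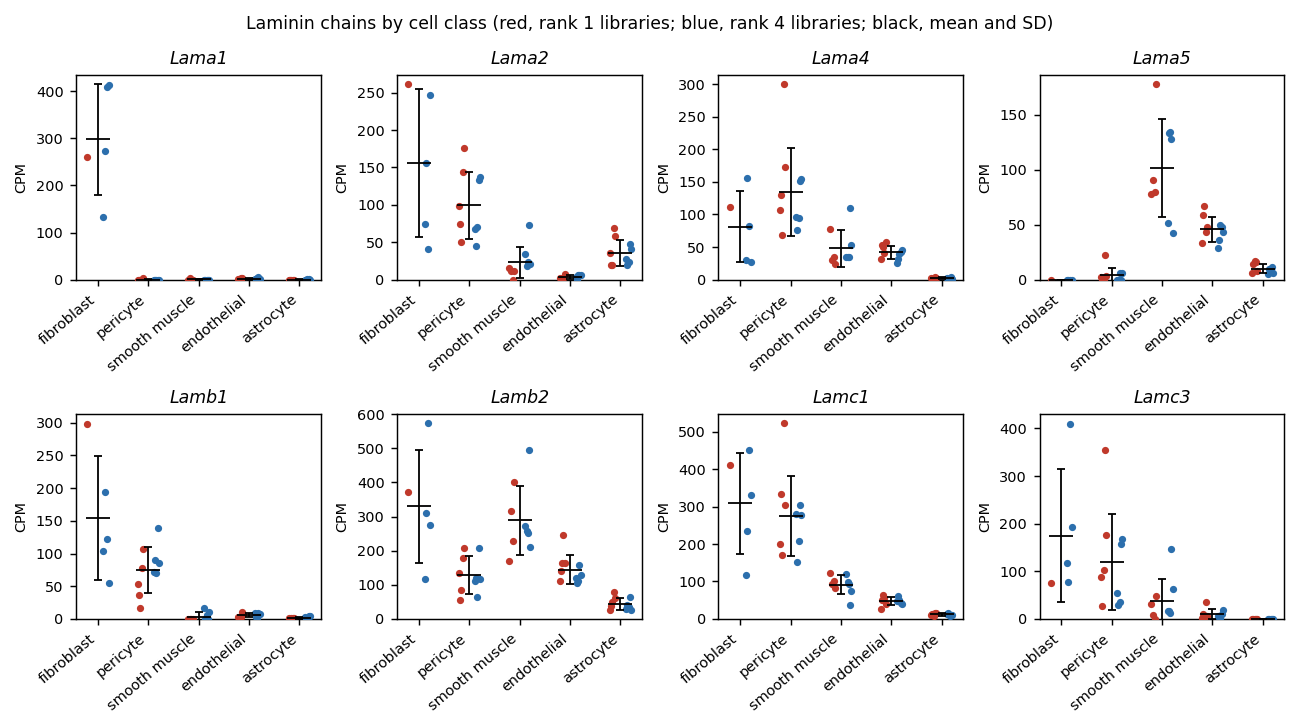
Level in CPM of 8 laminin chains per library in 5 classes, rank 1 in red and rank 4 in blue, with mean and SD in black. Lama1 is high in fibroblasts, Lama4 in pericytes (68.0 to 299.6 CPM) and Lama5 in smooth muscle and endothelial cells.

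Pericytes and endothelial cells were compared within the same 10 libraries. Of 9 members tested, 4 were higher in pericytes and 2 lower, where 7.56% and 11.3% of all 5817 genes were. The log2 fold changes were 4.60 for Lama2 (SE 0.21, adjusted p 2.13e-15 in edgeR), 3.54 for Lamc3, 2.58 for Lamc1 and 1.67 for Lama4, each higher in 10 of 10 libraries. Lama5 was lower by 3.58 and Col4a3bp by 2.37, each in 10 of 10. Lama5 had 7 UMIs in pericytes and 329 in endothelial cells, and Lama2 had 32 in endothelial cells and 228 in pericytes. Both passed the filter through the class in which they are high, so their folds and p values are descriptions. Col4a3bp stood at 172 ± 75 CPM in endothelial cells (81.2 lowest, 140.3 median, 314 highest) and at 23.7 to 63.3 CPM in the other classes. Col4a1 (0.24, adjusted p 0.060 in edgeR), Lamb2 (-0.11) and Col4a2 (-0.20) were not called. Smooth muscle cells and pericytes were compared in 9 libraries, where 4 members could be tested. Lamb2 was higher in smooth muscle cells by 1.29 (SE 0.19, adjusted p 2.37e-05 in edgeR) and Lamc1 lower by 1.34 (2.6e-05), each in 9 of 9 libraries, beside 8.52% of genes higher and 7.68% lower. Under the stricter cell filter Lamb2 was at 0.45 and no longer called. The pericyte markers summed to 6527 CPM in smooth muscle cells, and their part in these values was not tested.

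The remaining members were weaker. Between 20 and 100 CPM at their highest were Col5a2, Col4a6, Col6a2, Col16a1 and Col26a1 in fibroblasts, Col5a3 and Col4a3 in pericytes, Col11a2 and Col9a2 in committed oligodendrocyte precursors, Col11a1 in oligodendrocyte precursors, Col27a1 in microglia, Col14a1 in Lamp5 neurons, Col24a1 in L5/6 NP neurons and Col5a1 and Col23a1 in L6 CT neurons. Those under 20 CPM included Col2a1, Col4a4, Col6a3, Col6a4, Col6a5, Col6a6, Col8a1, Col8a2, Col9a1, Col10a1, Col17a1, Col20a1, Col22a1, Col28a1, Lama3 and Lamb3. Perivascular macrophages, in 4 libraries, had Col4a3bp at 52.7 and Col6a1 at 40.7 CPM, from few cells.

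In the oligodendrocyte lineage Col9a3, a fibril-associated chain of type IX collagen known from cartilage, was highest in committed precursors. It stood there at 423 ± 93 CPM in 9 libraries (240.3 lowest, 439 median, 516 highest), against 72.9 ± 16.2 in oligodendrocyte precursors, 63.4 ± 39.0 in oligodendrocytes and 29.9 ± 6.4 in astrocytes. The committed libraries and the precursor libraries did not overlap. These classes were not compared in a fit, and the share of all genes without overlap between them was not counted. Col11a2 followed at lower values, at 83.3 CPM in committed precursors and 31.9 in both precursors and astrocytes. Between precursors and oligodendrocytes Col9a3, the 1 member tested, did not pass in edgeR (log2 fold change -0.15, SE 0.18, adjusted p 0.527). Its fitted sign went against its mean CPM, which was higher in precursors in 7 of 10 libraries, in a fit where 11% of genes were higher and 9.87% lower. Microglia held Col27a1, a fibrillar collagen, at 84.4 ± 27.8 CPM (51 to 140), and Col15a1 at 11.6 ± 5.4.

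Astrocytes and excitatory neurons differed in 19 of the 23 members tested, 11 higher in astrocytes and 8 lower, where 18.2% and 21.2% of all 11506 genes were. The largest rises were Col1a2 (6.90), Col4a5 (6.24), Lama3 (5.26) and Col27a1 (4.71), each in 10 of 10 libraries. They passed the filter through the astrocytes, since the excitatory neurons held 27, 7, 29 and 89 of their UMIs against 921, 154, 306 and 633, so these folds are imprecise. The largest falls were Col6a1 (-3.62), a chain of the beaded filaments, Col25a1 (-2.85), Col6a2 (-2.82) and Lamb1 (-2.66). Lamb2 stood at 44.7 CPM in astrocytes against 1.70 in excitatory neurons, while Lamb1 stood at 2.19 against 18.3. The adjusted p of the 4 rises and 4 falls was at most 3.44e-06 in edgeR. For the rises it is a description as well, since they passed the filter through the astrocytes.

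Neurons differed among themselves. Inhibitory neurons had Col19a1 at 111 ± 72 CPM against 4.92 in excitatory neurons, higher by 4.20 on the log2 scale in 10 of 10 libraries (edgeR, SE 0.18, adjusted p 2.2e-16). Col19a1 is a fibril-associated collagen known from interneurons. Of 13 members tested, Col26a1 was higher as well (2.10) and 5 were lower, Col23a1 by 3.20, Col12a1 by 2.94, Col6a1 by 2.82, Col6a2 by 2.07 and Col16a1 by 1.44, beside 5.47% of genes higher and 6.57% lower. Among the named inhibitory subclasses Col19a1 stood at 165 ± 109 CPM in Sst neurons (68.2 lowest, 111 median, 348.6 highest), 99.9 in Vip, 56.6 in Pvalb and 44.95 in Lamp5. In libraries with at least 10 cells these held 179, 185, 121 and 49 UMIs, of 854 in all inhibitory neurons. The 649 inhibitory neurons without a subclass name were given no level, so Sst neurons stood highest among the named subclasses only. Both replicate 1 libraries were the highest in all inhibitory neurons, at 250.6 in rank 1 and 235.0 in rank 4, and the other 8 lay at 48.2 to 108.4. Col25a1, a membrane-spanning collagen also known as CLAC-P, stood at 155 ± 102 CPM in Vip neurons (47.4 lowest, 143 median, 362 highest), 94.7 ± 55.9 in Sst neurons, 14.5 in Lamp5 neurons, 9.09 in Pvalb neurons and 28.7 in excitatory neurons. Over all inhibitory neurons its log2 fold change against excitatory neurons was 0.98, short of the limit of 1.

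Among the named excitatory subclasses 6 members are described, and L6 CT and L5 IT neurons each held the highest level of more than 1 of them. L6 CT neurons had the highest Col5a1, a chain of type V collagen, which starts fibrils, at 52.6 ± 16.6 CPM (26.4 lowest, 53.1 median, 83.2 highest), against 9.71 in L2/3 IT neurons. They also had the highest Col23a1, a membrane-spanning collagen, at 73.1 ± 44.0 CPM (0 lowest, 67.7 median, 158 highest). L5/6 NP neurons had the highest Col12a1, at 115 ± 34 CPM (48.8 lowest, 117 median, 157 highest), followed by L6 CT at 73.7 ± 34.7. L5 PT neurons had Col6a1 at 149 ± 56 CPM (76.4 lowest, 152 median, 239 highest) and L5 IT neurons at 30.04 ± 17.3, while L6 CT at 129 ± 71 overlapped L5 PT. L5 IT neurons had the highest Lamb1, at 30.4 ± 8.8 CPM, and L6 CT the lowest, at 1.20. Col25a1 was highest in L5 IT neurons, at 37.8 ± 14.0 CPM. Of its 1733 UMIs in excitatory neurons, 503 lay in L5 IT neurons and 725 in the other named subclasses.

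**Figure D4:**
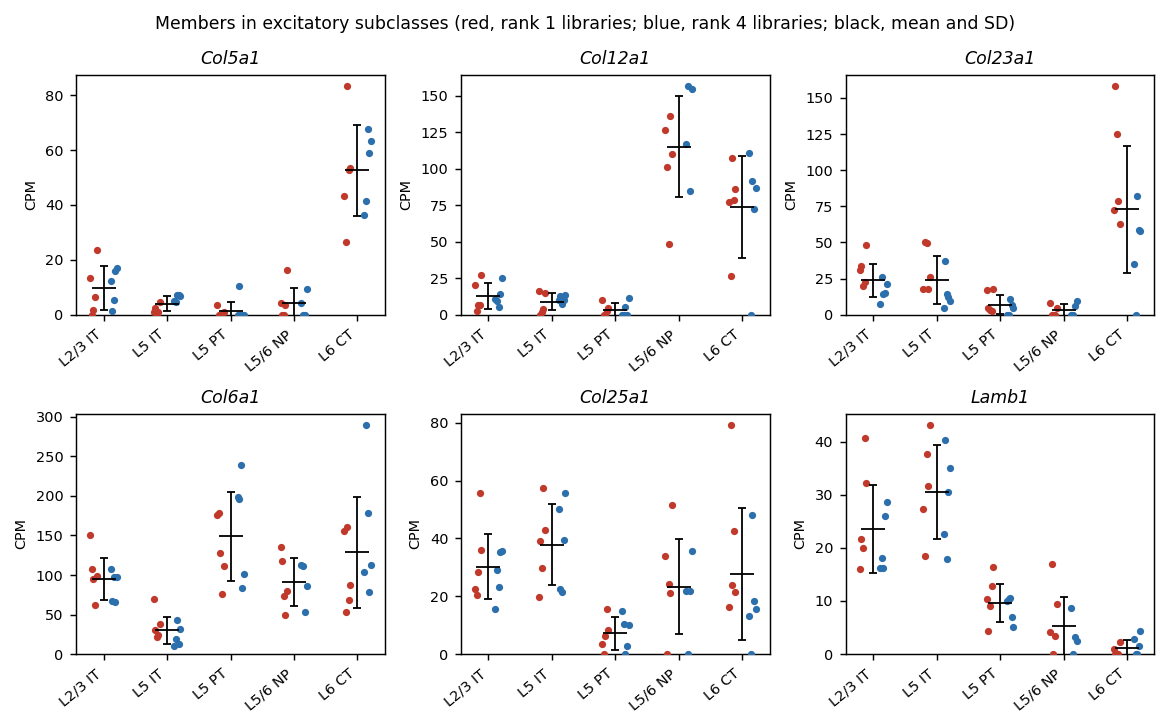
Level in CPM of 6 members per library in the 5 named excitatory subclasses, with mean and SD. Col5a1 and Col23a1 are highest in L6 CT, Col12a1 in L5/6 NP, Lamb1 and Col25a1 in L5 IT, and Col6a1 in L5 PT with L6 CT overlapping it.

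Each named subclass was set against the mean of the log levels of the other 4 named ones within libraries, with 12 members tested. In L6 CT neurons Col5a1 was higher by 3.69 (SE 0.18, adjusted p 1.31e-33 in edgeR), Col23a1 by 2.60 and Col12a1 by 2.31, and Lamb1 was lower by 2.63, beside 2.3% of genes higher and 3.08% lower. In L5/6 NP neurons Col12a1 was higher by 2.85 and Col16a1 by 1.03, and Col23a1 was lower by 2.19, Col4a2 by 1.39, Col4a1 by 1.33 and Lamb1 by 1.19, beside 3.18% and 5.12%. Col16a1 was higher in 6 of 9 libraries and lost its call with no filter on low counts (0.95), Lamb1 lost its call under the stricter cell filter (-1.10) and without rank 4 replicate 5 (-0.88), and clusters at resolution 0.5 left 3 calls in these neurons. L5 PT neurons had 5 members lower and 0 higher, Col5a1, Col12a1 (-2.97), Col25a1 (-1.97), Col16a1 (-1.73) and Col23a1 (-1.28), beside 3.16% lower and 2.89% higher. They passed the filter through the other subclasses, and L5 PT neurons held 3 UMIs of Col5a1 (932 elsewhere), 20 of Col12a1 and 15 of Col16a1. L5 IT neurons had Lamb1 (2.12) and Col25a1 (1.09) higher and Col6a1 (-1.78) and Col12a1 (-1.45) lower, beside 2.87% and 1.5%. In L2/3 IT neurons Lamb1 was higher by 1.67 and Col5a1 by 1.09, beside 2.79% higher and 2.16% lower. The Col5a1 value there rests on the averaging of log levels, since the mean CPM of 9.71 lay below the 15.9 of the other subclasses and 3 of 10 libraries were higher, and it reversed to -0.67 with coarser clusters.

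Dominant and subordinate mice were then compared within each class, the comparison the study was built on. None of the 77 tests of 35 members in 10 classes passed (edgeR with software version as a covariate, adjusted p under 0.05), nor any of 45 tests of 15 members in subclasses, and 0% of all genes passed in either. With the replicate number as a block instead, 1 member test was called in classes and 1 in subclasses. That fit called 0.0542% of all class tests higher and 0.263% lower, and 0.0967% and 0.294% of subclass tests. With the version covariate there were 4 and 5 tests at an unadjusted p under 0.05, all higher in rank 1 (5.19% and 11.1% of the tests), where 2.41% and 3.6% of all gene tests were, and DESeq2 gave 4 and 4 with 0 called. These tests are not independent. Col23a1 and Col25a1 count in a class and again in subclasses made of the same cells, so the percentages rest on few genes. The median log2 fold change of rank 1 over rank 4 was 0.14 over the 77 tests, with 50 of 77 above 0, and 0.03 in the subclasses, while the medians over all genes lay between -0.03 and 0.02 in each class and subclass.

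Col23a1 in excitatory neurons had the smallest unadjusted p. It stood at 33.2, 37.2, 32.2, 29.5 and 41.1 CPM in the rank 1 replicates and at 10.1, 24.2, 20.7, 26.9 and 23.5 in the rank 4 replicates. Every rank 1 library lay above every rank 4 library, as in 0.144% of all gene and class tests. The log2 fold change was 0.73 (SE 0.21, unadjusted p 0.00427, adjusted p 0.999 in edgeR), higher in 5 of 5 pairs of the same replicate number. With the replicate number as a block it was 0.74 with an adjusted p of 0.0360 in edgeR, in a fit that called 0.0542% of gene and class tests higher and 0.263% lower. Without replicate 1 of both ranks the block gave 0.55 with an adjusted p of 0.180 in edgeR. Software version 3.1.0 made replicates 1 to 3, which alone gave 0.93, and version 4.0.0 made replicates 4 and 5, which gave 0.52. Leaving out rank 4 replicate 1 gave 0.54, and with no filter on low counts the adjusted p was 0.0200 in edgeR. In L5 IT neurons it was 1.07 (SE 0.38, unadjusted p 0.0114, 32.5 ± 16.5 against 15.5 ± 12.5 CPM), and the block gave 1.11 with an adjusted p of 0.0186 in edgeR, beside 0.0967% of subclass tests higher and 0.294% lower, and 0.148 without replicate 1. In L2/3 IT neurons it was 0.99 (unadjusted p 0.00624, 31.0 ± 11.1 against 16.8 ± 7.3 CPM) and in L6 CT neurons 0.49 (99.4 against 46.7 CPM). The CPM means in L6 CT neurons give each library the same weight, and replicate 2 held 12 cells and 158 CPM in rank 1 and 15 cells and 0 UMIs in rank 4. L6 CT neurons, where Col23a1 is highest, were 16.9 ± 12.5% of the rank 1 excitatory cells and 16.4 ± 10.8% of the rank 4 ones. The summed level of the L6 CT markers in L5 IT neurons was 107 CPM in rank 1 and 123.3 in rank 4, and their part in the result was not tested.

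**Figure D5:**
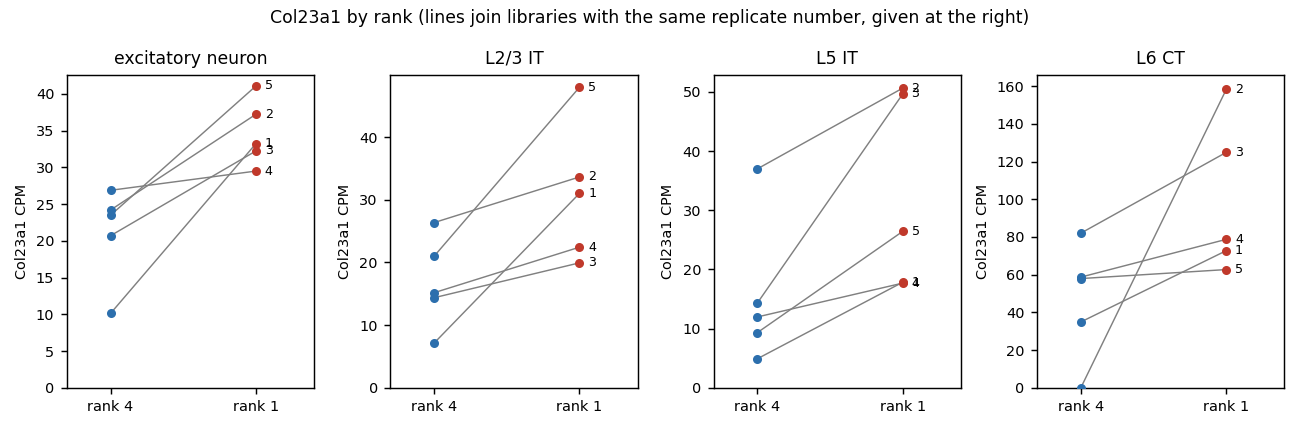
Col23a1 in CPM in excitatory neurons and 3 of their subclasses, with rank 1 and rank 4 libraries as points and lines joining libraries of the same replicate number. In excitatory neurons rank 1 spans 29.5 to 41.1 CPM and rank 4 spans 10.1 to 26.9, without overlap.

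The next tests had overlapping groups. Col9a3 in oligodendrocytes stood at 84.0 CPM in rank 1 and 42.7 in rank 4 (log2 fold change 1.00, unadjusted p 0.00814), from 1 to 119 UMIs per library. Col5a2 in astrocytes stood at 18.98 ± 5.39 and 11.3 ± 4.6 CPM (0.69, unadjusted p 0.0199), and under the stricter cell filter the value was 0.44 (unadjusted p 0.218). Col25a1 in inhibitory neurons stood at 71.2 ± 18.3 and 40.5 ± 24.2 CPM (0.62, unadjusted p 0.0397), and in Vip neurons at 205.6 ± 110 and 105 ± 71.4 (0.80, unadjusted p 0.0275). Lamc3 in pericytes stood at 149.6 ± 126 and 89.05 ± 68.1 CPM (0.65, unadjusted p 0.055), and without rank 1 replicate 4 the value was 0.42. The adjusted p of each was above 0.9 in edgeR. With the replicate block Col25a1 in inhibitory neurons was at 0.67 with an adjusted p of 0.205 in edgeR. The block without replicate 1, chosen after seeing the data, gave 0.93 with an adjusted p of 0.0427 in edgeR, and leaving out rank 4 replicate 1 alone, with no block, gave 1.03 with an adjusted p of 0.993.

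Genes that act with collagens and laminins were read from 3 lists, 29 for collagen synthesis and processing, 15 basement membrane partners and 17 receptors, of which 24, 14 and 15 could be tested. None was called between ranks in edgeR, with 1, 1 and 3 of 91, 38 and 55 tests at an unadjusted p under 0.05 (2.72% of them, beside the 2.41% of all genes) and 4 by DESeq2, which called 0. Their median log2 fold changes were 0.10, -0.05 and 0.14. The smallest p values were those of Itgb1, the shared beta chain of many matrix receptors, in microglia (0.85, unadjusted p 0.0076, 226 against 128 CPM), and of the receptor Adgrg1, which binds type III collagen, in oligodendrocyte precursors (0.50, unadjusted p 0.0269) and microglia (0.65, unadjusted p 0.0395). With the block, Sparc, a secreted collagen-binding protein, was lower in rank 1 in excitatory neurons (-1.21, adjusted p 0.0430 in edgeR) and inhibitory neurons (-1.19, 0.0458). Rank 4 replicate 1 held Sparc at 172 CPM in excitatory neurons, rank 1 replicate 1 at 42.4, and the other 8 libraries at 2.8 to 23.7. It was also called lower in L2/3 IT, L5 IT and L6 CT neurons. Without replicate 1 the value in excitatory neurons was -0.75 with an adjusted p of 0.487 in edgeR, and the fit with the version covariate gave -0.05 without rank 4 replicate 1.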

How the data were processed

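Gene by cell tables of UMI counts were deposited by the authors for 10 libraries. Per the file headers, software version 3.1.0 made those of replicates 1 to 3 and 4.0.0 those of replicates 4 and 5, while the submitters' processing notes name Cell Ranger 4.0.0 and mm10. Chemistry, cell calling and strand are not given in the sources used here. The members and lists were chosen with earlier results of these data known.

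Cells with at least 500 genes and at most 15% mitochondrial UMIs were kept, and 2269 doublets (simulated neighbours, score limit 0.15) were removed. The 2000 most variable genes without the members, 30 components, 15 neighbours and Leiden clustering at resolution 1 were used (Python 3.11.15, igraph 0.11.9). Clusters were named from fixed markers. Counts were summed per library and class, with at least 10 cells and 3 libraries per rank, and tested in edgeR 4.0.16, with DESeq2 1.42.0 as an alternative, and Benjamini-Hochberg adjustment ran over all genes of each fit. Rank fits used software version as a covariate. Class contrasts used the library as a block. Text names were taken first by a fixed rule: members at or above 100 CPM, the largest 4 changes each way, and the 5 class and 3 subclass rank tests and 3 partner tests of smallest p. Others were named beyond this rule, such as members under 100 CPM and Col23a1 between ranks in L6 CT neurons. Libraries of the same replicate number deviated together from their rank means in all 8 classes examined, with mean correlations of 0.682, 0.698, 0.739, 0.683 and 0.777 for replicates 1 to 5. The labels do not state that the numbers pair the libraries. The main rank fits did not use the replicate number, which was a block in an alternative fit. These values hold the software version that replicates share. From the means of rank and version they were 0.781, 0.429 and 0.427 for replicates 1 to 3. For replicates 4 and 5 they were both 0.156, and passed 0.1 in 6 of 8 classes. These are the same number by arithmetic, since replicates 4 and 5 alone make up version 4.0.0 in each rank. No other assignment of the numbers was compared. On simulated counts with 4-fold changes, the excitatory rank test recovered 100% of the 199 changed genes tested, with 6 false calls among 10893 genes. The simulated libraries were independent, with the same spread for all genes and no version or replicate effect. Only genes with ample counts were changed. Smaller changes were not simulated, so the recovery does not tell how many changes of the size seen between ranks would be called. Not every member is reported here by name.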

Additional observations from a re-analysis of the deposited data

Results flagged for a closer look

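The libraries of each rank were looked at apart, and the nearest value below is that of the same rank. In 59 such groups 7 values lay far from the others, where chance gives about 1 group in 20. In fibroblasts Col12a1 was at 59.09 CPM in rank 4 replicate 1, from 4 UMIs and 18 cells, and the nearest rank 4 library was at 357.3. In inhibitory neurons Col19a1 was at 250.6 CPM in rank 1 replicate 1 (nearest 108.4) and at 235.0 in rank 4 replicate 1 (nearest 97.75), and in Sst neurons at 348.6 in rank 4 replicate 1 (nearest 92.28). In smooth muscle cells rank 1 replicate 5 held Lama5 at 177.3 CPM (nearest 90.54) and Col4a1 at 307.4 (nearest 117.0), and rank 4 replicate 4 held Lamb2 at 494.3 (nearest 273.4).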

How the results depend on the processing

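With no filter on low counts, the members called were 1 in classes and 1 in subclasses between ranks and 2 tests of partner genes, each 0 with the filter, and the class contrasts gave 17 for fibroblasts against pericytes (8 with the filter), 12 for smooth muscle (2), 25 for pericytes against endothelial cells (6), 12 for precursors against oligodendrocytes (0), 33 for astrocytes (19), 22 for inhibitory neurons (7), 15 for L2/3 IT (2), 15 for L5 IT (4), 11 for L5 PT (5), 12 for L5/6 NP (6) and 7 for L6 CT (4). The share of all genes called in those unfiltered fits is not given here, so the unfiltered counts are no result about the members. With the replicate block, 1 member was called in classes, 1 in subclasses and 1 partner gene, Sparc, in 2 classes. The block without replicate 1, chosen after seeing the data, called 1 member in classes. The block changed no other call of a named member. The stricter cell filter (19163 cells) left 1 call for smooth muscle and 3 for L5 PT, DESeq2 1 for L2/3 IT, and resolution 0.5 3 for L5/6 NP. Other single calls lost were Lamb2 in smooth muscle cells (0.45, stricter filter), Col16a1 (0.95, no filter) and Lamb1 (-1.10, stricter filter; -0.88 without rank 4 replicate 5) in L5/6 NP neurons and Col5a1 in L2/3 IT neurons (0.76, DESeq2; 0.12, resolution 2). Col5a1 there reversed to -0.67 at resolution 0.5. Leaving out 1 library gave 7 to 10 calls for fibroblasts, 2 to 3 for smooth muscle, 4 to 8 for pericytes against endothelial cells, 0 to 0 for precursors, 19 to 20 for astrocytes, 7 to 8 for inhibitory neurons, 2 to 2 for L2/3 IT, 4 to 4 for L5 IT, 4 to 5 for L5 PT, 4 to 6 for L5/6 NP, 4 to 4 for L6 CT and 0 to 0 for each rank count. The fibroblast contrast could not be fitted under the stricter filter or with at least 20 cells, nor the L5 IT contrast at resolution 0.5. The cause of these changes was not tested. The fibroblast values rest on 89 cells in 5 libraries.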
